A study of Mus musculus with 8 samples.

Results

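The genes described here are 33 genes of autophagy and the lysosome, taken by symbol from a deposited table of 32499 genes, all of which were found in the table and passed the filter on low counts. They fall into 4 roles: 14 genes of autophagosome initiation and conjugation, 8 cargo receptors and members of the LC3 family, the 3 transcription factors Tfeb, Tfe3 and Mitf, and 8 genes of the lysosomal membrane and lysosomal enzymes. Read counts per gene were given for mouse neural progenitors isolated on embryonic day 14 from the neural tube, with 4 libraries labelled 53BP1KO and 4 labelled Ctrl. The 53BP1KO-labelled libraries came from C57BL/6 embryos bred from females with the Trp53bp1tm1Jc allele and males carrying in-frame CRISPR deletions in the same gene, and the Ctrl libraries came from wild-type C57BL/6 embryos. The labels give neither the deletion of each library, nor whether embryos were pooled, nor whether the cells had first been cultured in differentiation medium. All cells were sorted with NeuroFluor CDr3, a dye taken up by neural progenitors. The design asks how gene expression differs when 53BP1, a chromatin protein known from DNA break repair, is mutated.

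Autophagy encloses cytoplasm in a double membrane, the autophagosome, and delivers it to the lysosome. The ULK kinase complex and the Beclin 1 lipid kinase complex start the membrane, WIPI proteins read the lipid, and ubiquitin-like conjugation (ATG7, ATG3, ATG12, ATG5, ATG16L1) attaches LC3 and GABARAP proteins to it. Receptors such as p62 tie cargo to LC3, and cathepsins and glycosidases degrade it in the lysosome. TFEB, TFE3 and MITF are related factors that bind an E-box in many lysosomal and autophagy promoters, the CLEAR element, and are held in the cytoplasm by mTORC1 signalling when nutrients are plentiful.

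Trp53bp1, the mutated gene, had 30.4, 33.8, 19.2 and 25.2 CPM (counts scaled to a common library size, with TMM factors) in the 53BP1KO-labelled libraries and 27.2, 26.4, 26.9 and 26.6 CPM in the Ctrl libraries, so its level does not check the labels. An in-frame deletion need not lower that level, and the part of the Trp53bp1tm1Jc allele in it was not tested. Xist, the RNA of the inactive X chromosome, had 9 to 16 counts in the 53BP1KO-labelled libraries and 23853 to 26134 counts in the Ctrl libraries, and the Y-linked Ddx3y had 579 to 1064 counts in the 53BP1KO-labelled libraries and 0 in every Ctrl library; genotype and sex cannot be told apart. Of the 33 genes, Lamp2 and Tfe3 lie on the X chromosome, and Atg13, Map1lc3a and Optn lie on chromosome 2, as Trp53bp1 does. Total counts were 11081419 to 24339621 in the 53BP1KO-labelled libraries and 15343046 to 18189045 in the Ctrl libraries. The labels do not tie the replicates to separate embryos; the spread behind each p-value is that of the libraries and may be technical in part.

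The E-box was looked for in RefSeq promoter windows of GRCm38.p6, each running from 250 bases before to 50 bases after the annotated start, as CACGTG, which reads the same on both strands. A window was matched for 28 of the 33 genes. The letters CACGTG were present for 8 of the 28 genes (28.6%), against 8.09% of all 27025 genes with a window and 11.3% of the 10665 tested genes with one. By role they were present for 4 of 7 lysosomal genes, 4 of 11 initiation and conjugation genes, 0 of 7 receptors and LC3 family genes and 0 of the 3 factors. The longer GTCACGTG, which contains the E-box and was searched on both strands, was present for 6 of the 28 genes (21.4%), against 4.62% of the tested genes. The CLEAR element is known from lysosomal and autophagy promoters, so these shares describe the genes chosen and are not a result of the libraries. The stretches that hold the E-boxes before the start are printed to show how they are spaced; the capitals mark CACGTG, each line reads 5′ to 3′ on the strand of the gene, and coordinates are RefSeq GRCm38.p6, not the build of the counts.
Lamp1, chr8:13159080-13159160, plus strand: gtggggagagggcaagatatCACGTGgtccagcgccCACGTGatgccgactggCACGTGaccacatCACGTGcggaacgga
Mcoln1, chr8:3500428-3500499, plus strand: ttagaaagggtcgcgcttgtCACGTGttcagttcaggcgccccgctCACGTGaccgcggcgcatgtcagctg
Ctsd, chr7:142387900-142387945, minus strand: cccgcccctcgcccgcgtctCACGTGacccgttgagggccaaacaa
Ctsd, chr7:142388047-142388077, minus strand: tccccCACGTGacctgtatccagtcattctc
Ctsl, chr13:64370731-64370770, minus strand: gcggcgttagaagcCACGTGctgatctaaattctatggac
Atg3, chr16:45158715-45158783, plus strand: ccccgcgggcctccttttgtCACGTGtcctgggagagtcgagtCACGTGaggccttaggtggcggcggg
Atg5, chr10:44268305-44268338, plus strand: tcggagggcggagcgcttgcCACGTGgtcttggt
Atg7, chr6:114670944-114670989, plus strand: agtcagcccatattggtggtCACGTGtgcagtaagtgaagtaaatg

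Lamp1 held 4 E-boxes in the last 61 bases before its start, Mcoln1 and Atg3 held 2 each within 94 bases of the start, and Ctsd held 2 that lay apart. An E-box of Atg14 lay across the start itself and is not printed. Hexa and Psap, the lysosomal genes with the largest differences below, held no CACGTG in these windows. By call, CACGTG was present for 6 of the 16 genes called higher below that had a window and for 2 of the 12 not passed; over all tested genes with a window it was present for 12.5% of those called higher, 9.95% of those called lower and 11.3% of those not passed. Among the further lists described below it was present for 4 of 13 V-ATPase genes, 9 of 30 other lysosomal hydrolases, 6 of 21 mTORC1 genes, 3 of 12 other selective receptors, 4 of 16 other membrane and transport genes, 2 of 11 fusion genes and 2 of 17 other autophagosome formation genes. The letters TGATGNAA, a composite element bound by ATF4, were present for 1 of the 28 genes, Ctsl, against 2.67% of tested genes, and TGACNNNGC, the core of the NRF2 element, for 7 of the 28, against 16.9% of tested genes, both searched on both strands. A match is a run of letters and not a measured binding site.

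Across the 33 genes, 19 were higher in the 53BP1KO-labelled libraries and 0 were lower past the threshold, an adjusted p of 0.05 over all 15021 genes tested (quasi-likelihood test of edgeR, Benjamini-Hochberg adjusted). Over all genes tested, 16.1% were called higher and 13.9% lower, or 30.0% in all. The median log2 fold change of the 33 genes was 0.37, that of all genes tested was 0.00, and 29 of the 33 values were above 0. Groups free of overlap were seen for 19 of the 33 genes, against 29.9% of all genes tested. Hexa and Mitf were the 2 genes that differed by more than 2-fold. Among the 4 genes with a negative value, 0 had an unadjusted p under 0.05 in edgeR and 0 were called by DESeq2, while limma's voom called 2 lower, Atg16l1 and Tfeb. Without 53BP1KO 1 and Ctrl 2, the libraries with the fewest and the most genes detected, 10 of the 33 were called higher and Atg3, Atg14, Ulk2, Map1lc3a, Sqstm1, Optn, Ctsd, Ctsl and Mcoln1 lost the call, while 1420 of all genes were called higher in place of 2412.

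**Figure D1:**
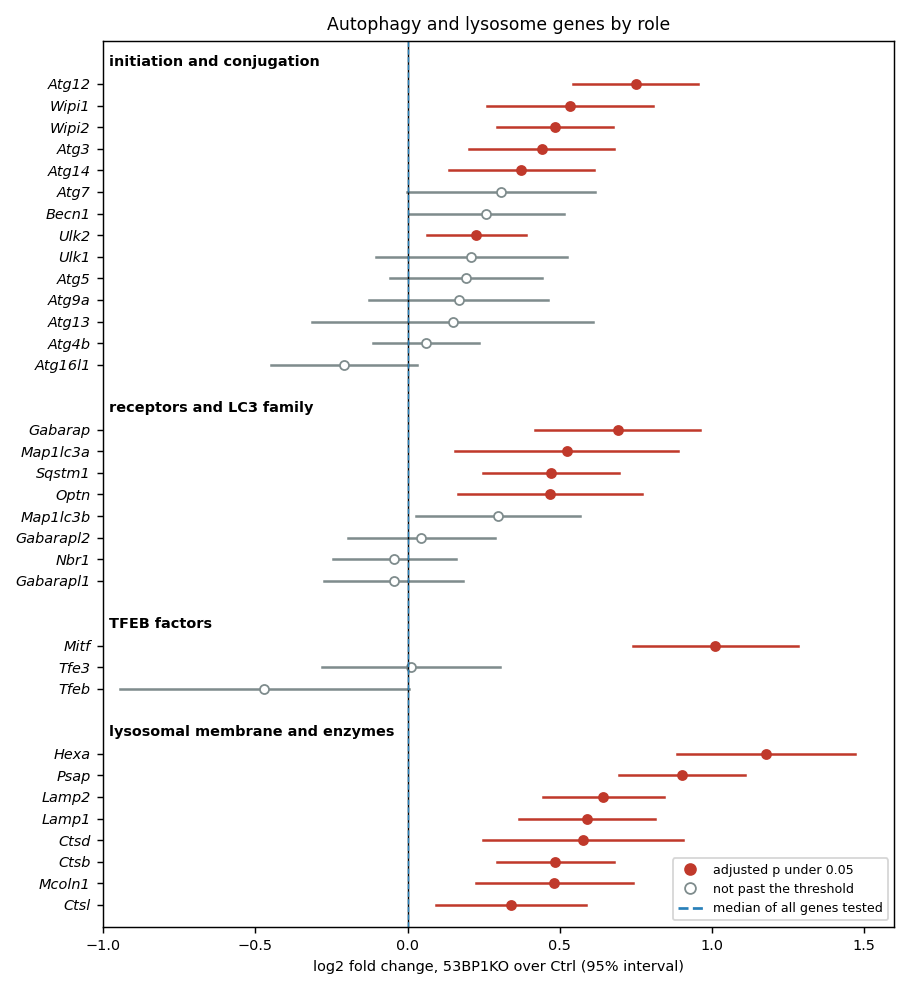
Log2 fold change of 53BP1KO-labelled over Ctrl libraries for each of the 33 genes, by role, with 95% intervals (n = 4 and 4). Filled points passed the threshold and open points did not; all 8 lysosomal genes lie right of 0, from 0.34 for Ctsl to 1.18 for Hexa, while Tfeb lies left of 0 at -0.47 and did not pass.

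The 10 neural progenitor markers summed to between 9092 and 12526 CPM in the 53BP1KO-labelled libraries and between 9599 and 11678 CPM in the Ctrl libraries, most of it Fabp7, which did not pass (log2 fold change 0.04). The other progenitor markers moved both ways: Sox2 (0.78), Pax6 (0.50), Hes5 (0.47) and Slc1a3 (0.31) were higher, and Nes (-0.90), Prom1 (-0.63) and Vim (-0.39) were lower. Macrophages and microglia are rich in lysosomes, and 10 of their 13 markers, Csf1r, Cx3cr1, the C1q genes, Tyrobp and Trem2 among them, stayed below 1 CPM in every library; the 13 summed to 5.07 to 9.58 CPM in the 53BP1KO-labelled libraries and 6.19 to 12.9 CPM in the Ctrl libraries. Of 6 astrocyte markers 5 were higher: Gfap (log2 fold change 3.26), S100b (2.20), Aqp4 (1.77), Slc1a2 (1.11) and Gja1 (0.55). Aldh1l1 (0.12) did not pass. The 6 summed to 589 to 719.9 CPM in the 53BP1KO-labelled libraries and 208 to 300.3 CPM in the Ctrl libraries, most of it Slc1a2. The 6 mesenchymal markers summed to 17.8 to 24.7 CPM in the 53BP1KO-labelled libraries and 42.0 to 97.3 CPM in the Ctrl libraries. Most of that sum was Col3a1 and Pdgfra. The 6 endothelial markers summed to 2.56 to 5.40 CPM in the 53BP1KO-labelled libraries and 5.97 to 13.3 CPM in the Ctrl libraries. Most of the endothelial sum was Kdr, which was called lower (log2 fold change -1.44). Pecam1 did not pass, and Cdh5, Cldn5 and Tek stayed below 1 CPM in every library. The 8 neuronal markers summed to 368 to 445 CPM in the 53BP1KO-labelled libraries and 399 to 523 CPM in the Ctrl libraries, most of it Map2. Dcx (0.91) and Tubb3 (0.68) were higher, and Snap25 (-1.16) and Syt1 (-0.83) were lower. For Tubb3 the groups overlapped, with Ctrl 4 at 39.0 CPM and the 53BP1KO-labelled libraries at 32.1 to 40.6 CPM. In bulk samples more cells of a type and more RNA per cell cannot be told apart, and the part of these progenitor, neuronal, astrocyte, mesenchymal and endothelial markers in the differences below was not tested.

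The lysosomal membrane and enzyme genes were all called higher in the 53BP1KO-labelled libraries, 8 of 8, with a median log2 fold change of 0.58. Without 53BP1KO 1 and Ctrl 2 together, 5 of the 8 were called, and Ctsd (adjusted p = 0.0832), Mcoln1 (0.0869) and Ctsl (0.19) lost the call. For each of the 8 the groups did not overlap, as was the case with the 53BP1KO-labelled libraries higher for 15.9% of all genes tested. Hexa, the alpha subunit of the hexosaminidase that degrades GM2 ganglioside, had 628, 555, 652 and 691 CPM in the 53BP1KO-labelled libraries and 327, 296, 298 and 195 CPM in the Ctrl libraries. Its log2 fold change was 1.18 (SE 0.14, adjusted p = 1.95e-05). Psap, whose product is cut into the saposins that present lipids to those enzymes, had 145, 153, 123 and 154 CPM in the 53BP1KO-labelled libraries and 85.5, 70.5, 76.5 and 75.4 CPM in the Ctrl libraries. Its log2 fold change was 0.90 (SE 0.10, adjusted p = 9.91e-06), and every 53BP1KO-labelled library lay above the highest Ctrl library.

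Lamp1 and Lamp2 encode the most abundant glycoproteins of the lysosomal membrane, and both were higher. Lamp1 had 67.8, 58.3, 75.5 and 71.7 CPM in the 53BP1KO-labelled libraries and 49.0, 48.3, 44.4 and 39.9 CPM in the Ctrl libraries (log2 fold change 0.59, SE 0.10, adjusted p = 0.0007). Lamp2, on the X chromosome, had 642, 629.9, 769 and 686 CPM in the 53BP1KO-labelled libraries and 449, 467, 435 and 393 CPM in the Ctrl libraries (log2 fold change 0.64, SE 0.09, adjusted p = 0.00013). The groups lay well apart for both. Mcoln1, the calcium channel of the lysosome that takes part in activating TFEB, had 62.9, 61.9, 50.4 and 55.0 CPM in the 53BP1KO-labelled libraries and 48.4, 40.3, 43.0 and 32.8 CPM in the Ctrl libraries. The lowest 53BP1KO-labelled library of Mcoln1 lay just above the highest Ctrl library, and the log2 fold change was 0.48 (SE 0.12, adjusted p = 0.00782).

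The 3 cathepsins, proteases of the lysosome, differed in how clearly they separated. Ctsb had 549, 509, 550.0 and 505 CPM in the 53BP1KO-labelled libraries and 432, 357, 369.8 and 351 CPM in the Ctrl libraries (log2 fold change 0.48, SE 0.09, adjusted p = 0.00098). Ctsd had 37.5, 38.5, 35.2 and 34.1 CPM in the 53BP1KO-labelled libraries and 33.4, 23.4, 22.8 and 17.5 CPM in the Ctrl libraries, so that Ctrl 1 came within 1 CPM of the lowest 53BP1KO-labelled library. Its log2 fold change was 0.58 (SE 0.15, adjusted p = 0.0112). Ctsl had 25.3, 21.4, 24.6 and 22.5 CPM in the 53BP1KO-labelled libraries and 18.5, 19.4, 21.0 and 15.5 CPM in the Ctrl libraries (log2 fold change 0.34, SE 0.11, adjusted p = 0.0374). The call for Ctsl was lost without 53BP1KO 1, 53BP1KO 3, 53BP1KO 4, Ctrl 1, Ctrl 2 or Ctrl 4, with log2 fold changes of 0.25 to 0.40 when single libraries were left out. Ctsb overlaps Fdft1 on the other strand, whose log2 fold change was -0.86, and the strand setting of the counting is not known.

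**Figure D2:**
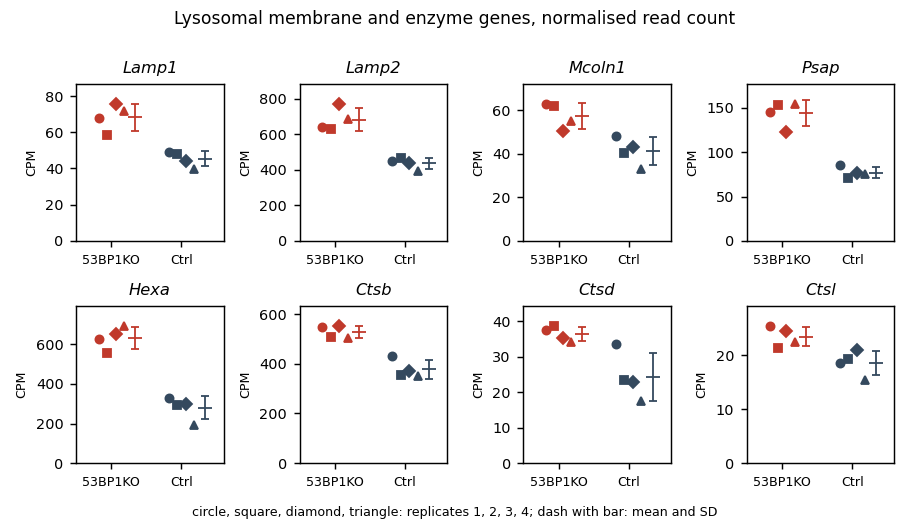
CPM of the 8 lysosomal genes in each library, 53BP1KO-labelled left and Ctrl right, with the mean and SD (n = 4 each). The groups do not overlap in any panel; Ctrl 4 is the lowest Ctrl library for 7 of the 8 genes.

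Ctrl 4 stood below the other Ctrl libraries for many of these genes. It was the lowest of the 4 Ctrl libraries for 17 of the 33 genes, against 30.7% of all genes tested, and the 8 lysosomal genes summed to 1120.5 CPM there and 1311 to 1444 CPM in the other Ctrl libraries. In the 53BP1KO-labelled libraries the same sum was between 2028 and 2279 CPM. Without Ctrl 4, the median log2 fold change of the 8 lysosomal genes was 0.48, 7 of the 8 were called higher, and 18 of the 33 genes were called higher. Some cell markers also set Ctrl 4 apart from the other Ctrl libraries. Col3a1 (54.0 against 19.5 to 25.1 CPM) and Tubb3 (39.0 against 16.4 to 18.9 CPM) were higher there. Slc1a2 (145 against 221 to 248 CPM) was lower there. Other markers of the same lists went the other way in Ctrl 4. The astrocyte markers Gfap (12.1 against 5.54 to 6.19 CPM) and Aldh1l1 (10.4 against 5.92 to 8.28 CPM) were higher. The neuronal marker Elavl3 (14.6 against 21.2 to 24.1 CPM) was lower. The part of these markers in the lysosomal values of Ctrl 4 was not tested.

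Of the 3 related transcription factors, Mitf was higher and the other two did not pass. Mitf, known best for melanocytes and also expressed in the neuroepithelium of the eye, had 17.8, 20.3, 19.3 and 19.0 CPM in the 53BP1KO-labelled libraries and 10.03, 10.04, 10.4 and 7.31 CPM in the Ctrl libraries. Its log2 fold change was 1.01 (SE 0.13, adjusted p = 3.96e-05), and the groups did not overlap. The counts do not tell its promoters and isoforms apart. Tfeb had 2.41, 3.40, 1.92 and 2.64 CPM in the 53BP1KO-labelled libraries and 3.73, 4.34, 3.29 and 2.78 CPM in the Ctrl libraries, with overlapping groups and a log2 value of -0.47 (SE 0.22, 95% interval -0.95 to 0.00, adjusted p = 0.127). Tfe3, on the X chromosome, had 6.49, 5.40, 5.75 and 5.87 CPM in the 53BP1KO-labelled libraries and 5.59, 5.75, 6.26 and 5.82 CPM in the Ctrl libraries, a log2 fold change of 0.01 (95% interval -0.28 to 0.30). Of the 6 markers of melanocytes and neural crest, Sox10 was higher as well, at 23.5, 26.1, 26.8 and 28.8 CPM in the 53BP1KO-labelled libraries and 20.3, 15.1, 17.7 and 23.6 CPM in the Ctrl libraries (log2 fold change 0.46, SE 0.13, adjusted p = 0.0174). The groups of Sox10 overlapped. The pigment genes Dct, Tyrp1 and Mlana stayed below 1 CPM in every library, and Tyr and Pmel did so in every 53BP1KO-labelled library, with 1.88 and 1.36 CPM at most in the Ctrl libraries. Which cells gave the Sox10 reads is not known. The part of neural crest or other cells in the difference of Mitf was not tested.

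Among the initiation and conjugation genes 6 of 14 were higher and 0 lower, with a median log2 fold change of 0.24. The largest difference was in Atg12, the ubiquitin-like protein that is joined to ATG5, with 173, 144, 183 and 173 CPM in the 53BP1KO-labelled libraries and 106, 94.5, 92.0 and 107 CPM in the Ctrl libraries. Its log2 fold change was 0.75 (SE 0.10, adjusted p = 4.75e-05), and the groups lay far apart. Atg3, the E2-like enzyme that passes LC3 to its lipid, had 58.4, 45.7, 65.0 and 60.3 CPM in the 53BP1KO-labelled libraries and 38.4, 44.2, 42.2 and 44.6 CPM in the Ctrl libraries (log2 fold change 0.44, SE 0.11, adjusted p = 0.00824). The 53BP1KO 2 library, the shallowest, came close to the Ctrl range for Atg3.

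Both WIPI genes, which encode readers of phosphatidylinositol 3-phosphate, were higher. Wipi1 had 9.55, 10.2, 10.9 and 10.8 CPM in the 53BP1KO-labelled libraries and 7.24, 7.54, 6.06 and 7.76 CPM in the Ctrl libraries (log2 fold change 0.53, SE 0.13). Wipi2 had 247, 219, 217 and 243 CPM in the 53BP1KO-labelled libraries and 178, 154, 153 and 177 CPM in the Ctrl libraries (0.49, SE 0.09). Neither gene's groups overlapped. Atg14, which directs the Beclin 1 complex to the forming membrane, averaged 36.0 ± 2.55 CPM in the 53BP1KO-labelled libraries and 27.8 ± 3.68 CPM in the Ctrl libraries (SD, n = 4 each; log2 fold change 0.37, SE 0.11, adjusted p = 0.0208), and its call was lost without 53BP1KO 4 or Ctrl 2. The kinase gene Ulk2 had 219, 219, 219 and 206 CPM in the 53BP1KO-labelled libraries and 186, 187, 189 and 176 CPM in the Ctrl libraries. The groups of Ulk2 did not overlap, but the difference was small (0.23, SE 0.08, adjusted p = 0.0365), and its call was lost when any of the 8 libraries was left out.

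The other 8 genes of this role did not pass. Their log2 fold changes ran from -0.21 for Atg16l1, which places the conjugation machinery on the membrane, to 0.31 for Atg7, the E1-like enzyme. Atg7 had 5.31, 5.66, 5.41 and 6.25 CPM in the 53BP1KO-labelled libraries and 4.49, 4.34, 4.97 and 4.53 CPM in the Ctrl libraries, groups that did not overlap although the adjusted p was 0.126. Becn1, the scaffold of the lipid kinase complex, had an interval of 0.00 to 0.51, and Ulk1, the second kinase gene, one of -0.10 to 0.52. Atg5, the partner of Atg12, had a log2 fold change of 0.19, Atg9a, a lipid scramblase carried in vesicles, of 0.17, Atg13, a subunit of the ULK complex, of 0.15, and Atg4b, the protease that trims LC3, of 0.06. Atg9a (942 counts in all) overlaps Ankzf1 (805 counts, log2 fold change 0.73) on the other strand. Atg4b (10123 counts) likewise overlaps Thap4 (558 counts, log2 fold change -0.60), and the strand setting is not known. Scarna6, a small Cajal body RNA, and Gm25395 lie within Atg16l1 on its own strand and had more counts than it. Both were called higher (log2 fold changes of 0.58 and 0.49). How reads shared with Atg16l1 were counted is not known, so its value may be affected.

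**Figure D3:**
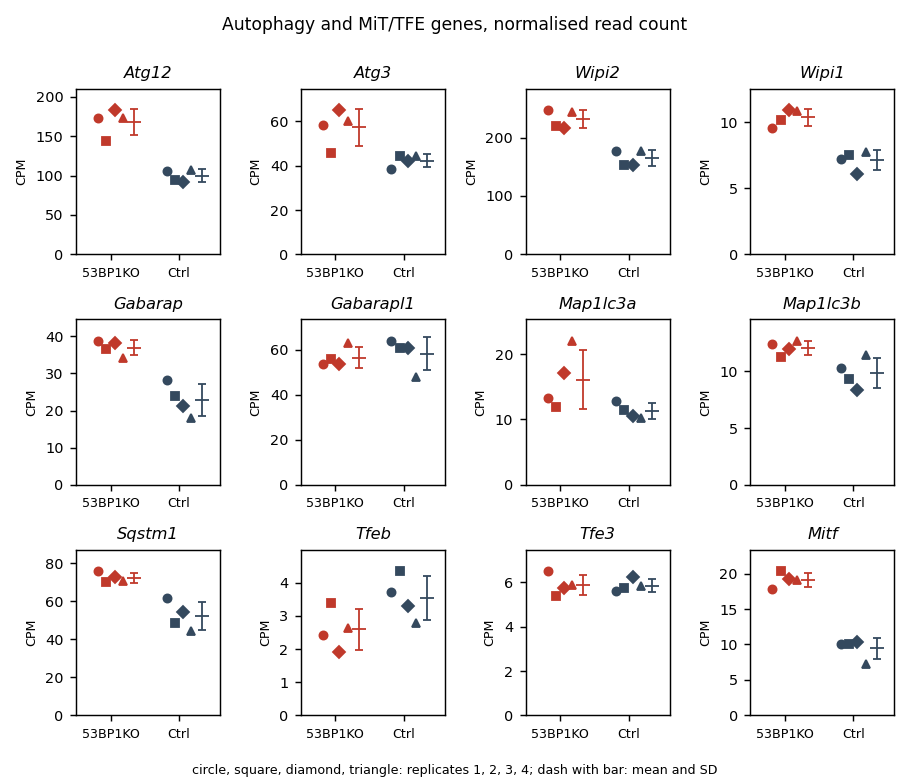
CPM of 12 autophagy and MiT/TFE genes in each library, 53BP1KO-labelled left and Ctrl right, with the mean and SD (n = 4 each). Mitf, Atg12, Gabarap and both Wipi genes separate the groups, whereas Gabarapl1, Tfeb and Tfe3 overlap; in Map1lc3a the libraries 53BP1KO 3 and 53BP1KO 4 stand above the rest.

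Within the LC3 family Gabarap and Map1lc3a passed the threshold, and Map1lc3b, Gabarapl1 and Gabarapl2 did not. Gabarap had 38.7, 36.5, 38.1 and 34.1 CPM in the 53BP1KO-labelled libraries and 28.1, 24.0, 21.1 and 17.9 CPM in the Ctrl libraries (log2 fold change 0.69, SE 0.13, adjusted p = 0.000921). Gabarapl1 had 53.5, 55.8, 53.5 and 63.1 CPM in the 53BP1KO-labelled libraries and 63.9, 60.7, 60.9 and 47.7 CPM in the Ctrl libraries, overlapping groups with an interval of -0.27 to 0.18. Gabarapl2 had an interval of -0.20 to 0.29. Map1lc3a had 13.3, 11.9, 17.1 and 22.0 CPM in the 53BP1KO-labelled libraries and 12.9, 11.4, 10.6 and 10.3 CPM in the Ctrl libraries. Its groups overlapped, and its call (0.52, SE 0.17, adjusted p = 0.0328) was lost without 53BP1KO 3, 53BP1KO 4, Ctrl 2 or Ctrl 3. Map1lc3b, the usual marker of autophagosomes, had 12.4, 11.2, 11.95 and 12.7 CPM in the 53BP1KO-labelled libraries and 10.3, 9.28, 8.32 and 11.4 CPM in the Ctrl libraries (0.30, SE 0.13, adjusted p = 0.0894). Map1lc3b overlaps Zcchc14 on the other strand.

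Of the 3 cargo receptors 2 were higher. Sqstm1, which encodes p62, had 75.6, 69.9, 72.8 and 70.8 CPM in the 53BP1KO-labelled libraries and 61.7, 48.4, 54.0 and 44.4 CPM in the Ctrl libraries (0.47, SE 0.10, adjusted p = 0.00357), with no overlap. Optn, the receptor of damaged mitochondria and bacteria, had 14.9, 16.5, 13.4 and 13.6 CPM in the 53BP1KO-labelled libraries and 10.7, 11.5, 11.99 and 7.82 CPM in the Ctrl libraries (0.47, SE 0.14, adjusted p = 0.0218), and its call was lost without 53BP1KO 1 or 53BP1KO 2. Nbr1, which has a domain structure like that of p62, averaged 41.8 ± 2.68 CPM in the 53BP1KO-labelled libraries and 43.0 ± 3.33 CPM in the Ctrl libraries (SD, n = 4 each), with an interval of -0.25 to 0.16.

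Ratios of related genes within a library do not depend on the scaling between libraries, and 8 pairs were compared as log2 ratios of counts with 0.5 added. The Gabarapl1 to Gabarap ratio was 0.47, 0.61, 0.49 and 0.89 in the 53BP1KO-labelled libraries and 1.18, 1.34, 1.53 and 1.41 in the Ctrl libraries. The groups did not overlap and their means differed by -0.75. The Mitf to Tfe3 ratio was 1.45, 1.90, 1.74 and 1.69 in the 53BP1KO-labelled libraries and 0.84, 0.80, 0.73 and 0.33 in the Ctrl libraries, a difference of 1.02. Each of these 2 pairs reached p = 0.0286 in a two-sided exact permutation test, the smallest that 4 against 4 libraries allow. After Benjamini-Hochberg adjustment over the 8 pairs the value of this test was 0.114, which misses the threshold. A pair at the smallest p can pass that adjustment only if most of the 8 pairs reach it. The number of libraries therefore limits this test. The Tfeb to Tfe3 ratio differed by -0.46 (exact permutation p = 0.114). The Lamp2 to Lamp1 ratio was 3.32 ± 0.09 in the 53BP1KO-labelled libraries and 3.27 ± 0.05 in the Ctrl libraries (SD, n = 4 each; exact permutation p = 0.343), and the Ulk1 to Ulk2, Wipi1 to Wipi2, Map1lc3b to Map1lc3a and Gabarapl1 to Gabarapl2 ratios differed by -0.01, 0.05, -0.17 and -0.08.

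**Figure D4:**
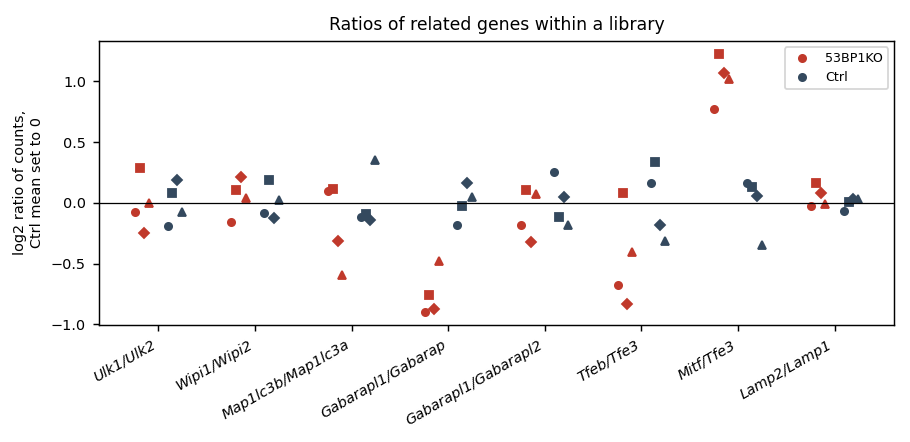
Log2 ratio of the counts of related genes in each library, with the Ctrl mean of each pair set to 0, 53BP1KO-labelled left of Ctrl. Gabarapl1 to Gabarap lies below 0 and Mitf to Tfe3 above 0 in all 4 53BP1KO-labelled libraries; the other pairs overlap.

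Other genes of the pathway were counted in 7 lists that hold none of the 33. Of 147 tested in these lists, 54 were higher and 1 was lower, a share of 36.7% higher against 16.1% of all genes tested. Of the V-ATPase genes, which acidify the lysosome, 10 of 18 were higher (55.6%), as were 19 of 36 other lysosomal hydrolases (52.8%), 5 of 14 other selective receptors (35.7%), 8 of 23 other lysosomal membrane and transport genes (34.8%) and 6 of 22 mTORC1 genes at the lysosome (27.3%). The shares were 23.1% for autophagosome fusion genes (3 of 13) and 14.3% for other autophagosome formation genes (3 of 21). The differences between lists were not tested.

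Among the V-ATPase genes, Atp6v1g1 averaged 155 ± 25.7 CPM in the 53BP1KO-labelled libraries and 86.7 ± 8.07 CPM in the Ctrl libraries (SD, n = 4 each; log2 fold change 0.84, SE 0.12). Atp6v1d (0.63), the accessory subunit Atp6ap2 (0.54), which lies on the X chromosome, and Atp6v0b (0.52) followed. Among the hydrolases, Naglu, which degrades heparan sulphate, averaged 10.3 ± 0.897 CPM in the 53BP1KO-labelled libraries and 4.01 ± 0.59 CPM in the Ctrl libraries (1.37, SE 0.15), and the cathepsin gene Ctso (1.10, SE 0.17) was higher too. The 1 gene that fell was Ctsk, the cathepsin of bone-resorbing cells, here at 1.22 ± 0.144 CPM in the 53BP1KO-labelled libraries and 2.93 ± 1.04 CPM in the Ctrl libraries (-1.25, SE 0.29). The membrane genes Tpcn1 (0.94, a calcium channel), Cd63 (0.86, a tetraspanin) and Gnptg (0.64, a subunit of the enzyme that makes the mannose 6-phosphate signal) were among the genes with the largest differences of their list, whose count of 8 became 5 without 53BP1KO 4.

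The mTORC1 genes at the lysosome included 6 of 22 that were higher and 0 that were lower. Rragd, a RAG GTPase that takes part in the control of TFEB and TFE3, had 242, 224, 252 and 243 CPM in the 53BP1KO-labelled libraries and 149.8, 153, 155 and 153 CPM in the Ctrl libraries (0.66, SE 0.08, adjusted p = 2.25e-05). Its spread within each group was small beside the gap between them. Flcn (0.61, SE 0.13) and Fnip1 (0.53, SE 0.09), which form the folliculin complex that acts on RAG GTPases, and Rraga (0.41, SE 0.10) were also higher, whereas Mtor had a log2 fold change of -0.01.

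Of the other selective receptors 5 of 14 were higher. Bnip3, a mitophagy receptor known as a hypoxia target, had 79.3, 51.8, 105 and 59.0 CPM in the 53BP1KO-labelled libraries and 26.9, 21.7, 22.9 and 19.3 CPM in the Ctrl libraries (1.70, SE 0.19, adjusted p = 1.28e-05), with a wide spread in the 53BP1KO-labelled group. Its relative Bnip3l (0.45) and the endoplasmic reticulum receptors Tex264 (0.42) and Sec62 (0.27) were higher as well. The count of this list was 1 without 53BP1KO 1, 2 without 53BP1KO 4, Ctrl 2 or Ctrl 3, and 3 without Ctrl 1. Among the autophagosome formation genes Atg10, the E2-like enzyme that joins ATG12 to ATG5, was higher (1.33, SE 0.19), as was the protease gene Atg4c (0.33, SE 0.10), and the count of 3 became 1 without 53BP1KO 1, Ctrl 2 or Ctrl 3. Vps41, of the HOPS tethering complex, and Rab7, the GTPase of late endosomes, were higher in the fusion list, with 0.40 and 0.43, whereas the SNARE gene Vamp8 had the largest value there, 0.67, and did not pass (adjusted p = 0.139).

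**Figure D5:**
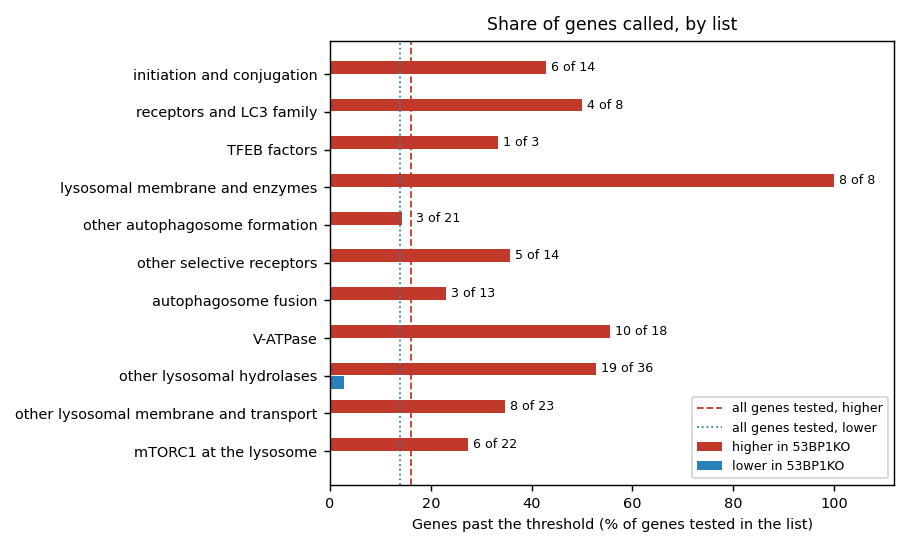
Share of the tested genes of each list that passed the threshold, higher (upper bar) or lower (lower bar) in the 53BP1KO-labelled libraries, with the number higher; dashed and dotted lines give the shares over all genes tested, 16.1% and 13.9%. The 4 lists of the 33 genes are at the top, and the lysosomal list reaches 8 of 8.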

How the data were processed

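The authors deposited 1 table of raw read counts per gene for the 8 libraries, made from total RNA with a stranded kit and paired-end sequencing per the labels' protocols. Counting used HTSeq 0.6.1p1 with build mm9 (NCBIM37), and CASAVA is also named, per the submitters' processing notes. The aligner and strand setting were not given in the sources used here. Counts were scaled with TMM and tested with edgeR 4.0.16 in R 4.3.3 (filterByExpr, quasi-likelihood test, 4 against 4 libraries, adjusted p over all 15021 genes tested); the test was checked on simulated counts. A log2 fold change is 53BP1KO over Ctrl. A count of 3 is worth 0.126 to 0.261 CPM. The alternatives covered scaling, filters, DESeq2 1.42.0, limma 3.58.1 voom and leaving out libraries.

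All 33 genes are named; from each further list the text names up to 4 genes, those with the largest difference among genes past the threshold whose groups do not overlap, and Mtor and Vamp8 were added after their values were seen. The genes and lists were chosen with earlier results of these data known. Replicates differed by more than sampling noise and were counted as 8 samples. Ctrl 2 and Ctrl 3 were closest, at a chi-square per degree of freedom of 4.45 against 13.8 to 36.2 for other within-group pairs. Promoters came from RefSeq windows; gene overlaps came from a GRCm38 annotation matched by symbol. The LC3 family proteins were not analysed here. Some genes that the naming rule selects are not reported here.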

Additional observations from a re-analysis of the deposited data

Results flagged for a closer look

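Of 132 groups of 4 libraries examined, 6 held a library whose gap to the nearest other exceeded Dixon's 95% critical value as a share of the group's range; chance flags about 1 group in 20. Ulk2 had 206 CPM in 53BP1KO 4 and 219 CPM in each of the other 53BP1KO-labelled libraries. Atg13 had 7.002 CPM in 53BP1KO 4 and 4.68 to 5.07 CPM in the other 53BP1KO-labelled libraries. Fnip1 had 315 CPM in 53BP1KO 3 and 299 to 302 CPM in the other 53BP1KO-labelled libraries. Mitf had 7.31 CPM in Ctrl 4 and 10.03 to 10.4 CPM in the other Ctrl libraries. Ctso had 48.0 CPM in Ctrl 4 and 91.4 to 96.6 CPM in the other Ctrl libraries. The log2 ratio of Map1lc3b to Map1lc3a was 0.15 in Ctrl 4 and -0.35 to -0.30 in the other Ctrl libraries.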

How the results depend on the processing

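Each gene was refitted under 18 alternatives. Of the 19 genes called higher, 10 passed in all 18 and 9 lost the call in at least 1; 3 genes not called passed in at least 1. Single libraries left out gave 15 to 18 called higher, and the other alternatives 10 to 20. Without 53BP1KO 1 and Ctrl 2 together, 1420 of all genes were higher and 1315 lower; 10 of the 33 were higher, made up of 3 initiation and conjugation genes, 1 receptor or LC3 gene, 1 factor and 5 lysosomal genes. In that setting 1 other formation gene, 1 other selective receptor, 0 fusion genes, 11 other hydrolases, 4 membrane and transport genes and 3 mTORC1 genes were higher. Upper-quartile scaling called 1 other formation gene and 3 other selective receptors higher and 1 membrane and transport gene lower, and a filter of 1 CPM in 4 libraries also called 1 of the last lower. With no filter 5 other formation genes were higher. By voom 2 of the 33 were lower, 1 initiation and conjugation gene and 1 factor, while 5 other formation genes were higher and 1 membrane and transport gene lower. The replicate numbers did not pair the libraries (correlations of 0.20, 0.23, -0.18 and 0.03 for numbers 1 to 4, and not every library correlated best with its own number); with the replicate block 18 of the 33 and 2 other selective receptors were higher. Single libraries left out gave 1 to 3 other formation genes, 1 to 4 other selective receptors and 5 to 10 membrane and transport genes higher.

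Sign changes were seen only in values not called. The Trp53bp1 log2 fold change was -0.00188 with RLE size factors, -0.0234 with upper-quartile scaling, -0.00432 with the 1 CPM filter, -0.0108 with the block, -0.0669 without 53BP1KO 1 and Ctrl 2, and -0.107 to 0.142 without single libraries. The Tfe3 log2 fold change was -0.00143 with RLE size factors, -0.028 with upper-quartile scaling, -0.0058 with the 1 CPM filter, -0.0605 without 53BP1KO 1 and Ctrl 2, and -0.0337 to 0.0422 without single libraries. With no filter the Gabarapl1 log2 fold change was 0.0188 and the Nbr1 log2 fold change was 0.0204; by voom the Gabarapl2 log2 fold change was -0.0113. Without single libraries the Atg13 log2 fold change ran from -0.0314 to 0.273, that of Gabarapl2 from -0.0137 to 0.105 and that of Nbr1 from -0.0839 to 0.00274. The Ulk1 to Ulk2 log2 ratio difference then ran from -0.11 to 0.0679, the Wipi1 to Wipi2 log2 ratio difference from -0.00378 to 0.12 and the Gabarapl1 to Gabarapl2 log2 ratio difference from -0.15 to 0.0031. The cause of these changes was not tested. At 34 to 80 counts a library, Tfeb had the widest standard error of the 33.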
